A study of Mus musculus with 209 samples.

Results

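The comparison described here follows RNA across fertilisation when the mother lacks Nlrp14, by setting 9 knockout 2-cell libraries against 7 knockout oocyte libraries, 16 of the 50 oocyte and 2-cell RNA libraries and of the 209 samples in the series. The 2-cell libraries were all those labelled knockout. The oocytes were the knockout ones in which ERCC spike-in RNA, synthetic RNA added before library preparation, made up at least 0.01% of all counts. That share was 0.0285 to 0.0389% in the 7 oocytes chosen (replicates 11 to 17) and 0.00121 to 0.00326% in the other 12 knockout oocytes. It chose the members, so nothing is tested on it. Per the labels, females were C57BL/6 mice aged 6 to 8 weeks, superovulated with PMSG and then hCG. MII oocytes, eggs paused at the second meiotic metaphase, were collected 14 to 15 hours and 2-cell samples 42 to 43 hours after hCG. The genotype reads N14 maternal KO, taken here as Nlrp14, and the deleted part of the gene is not given. Males were C57BL/6 or PWK, without a statement for each sample, and whether a 2-cell library is 1 cell or a whole embryo is not given either. For reference the same step was measured in wild-type (WT) libraries chosen by the same rule, 8 at the 2-cell stage and 10 oocytes.

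A fully grown oocyte stores the RNA and protein that carry the embryo through its first cell cycles. During the maternal-to-zygotic transition these stored transcripts are shortened and destroyed, by deadenylases, uridylation and decapping, while the embryo's own genome is switched on. In mice the main wave of that activation comes at the late 2-cell stage and includes short-lived bursts of gene families such as Zscan4. Nlrp14 is a germline NLRP family member whose product the egg inherits from the mother, and embryos from females lacking it are known to stop early.

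Library totals ran from 4682617 to 10439374 gene counts in the knockout oocytes and from 2704050 to 15007301 in the knockout 2-cell libraries, of which replicate 4 is the largest. Levels are given as CPM, a gene's count scaled to its library's total of gene counts. They are shares, so a transcript that stays while others are lost gains CPM. Gene counts per spike-in count were 2571 to 3512 in the oocytes and 1044 to 2090 at the 2-cell stage, and the amount of spike-in added is not given. The titles number the libraries with the mark sc, the labels name no animal, and a group is therefore treated as 1 sample. Differences carry no p-value, and each interval gives counting error alone. Nlrp14 itself, in knockout oocytes, was at 29.5, 46.3 and 63.6 CPM (lowest, median and highest library), and at the 2-cell stage at 29.4, 67.3 and 86.4 CPM. These ranges overlapped, and all 9 knockout 2-cell libraries lay below the 8 WT ones, at 106 to 477 CPM. Of its 1220 allele-assigned counts at the 2-cell stage, 22 (1.80%) were paternal. The 2-cell markers summed to 2.28 to 11.6 CPM in oocytes and 256 to 3039 CPM at the 2-cell stage. For 7 of the 9 in the table every 2-cell library lay above every oocyte, beside 10.9% of all genes compared below. Tdpoz4 had counts in 7 of 9 2-cell libraries and none in oocytes. The oocyte markers were not lower as a group at the 2-cell stage: they summed to 12368 to 15464 CPM in oocytes and 12958 to 26041 CPM at the 2-cell stage, and the ranges overlapped. Cumulus and granulosa markers, from the cells around the egg, summed to 62.5 to 121 CPM in oocytes and 57.8 to 80.9 CPM at the 2-cell stage, and 2 of 22 were abundant enough to compare. Of these, Cyp19a1 was lower (-1.37) and Kitl within 2-fold (0.83). None of the 15 sperm markers was compared, at summed levels of 7.93 to 20.2 and 3.41 to 14.6 CPM.

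The promoters below are those of genes on which the results turn: genes that came on without maternal Nlrp14, and lastly Clpp and Ostm1, which did not reach their WT level. Each is the 250 bases before the RefSeq start on the gene's strand in build GRCm38.p6, matched by symbol. Zfp352 is chr4:90218570-90218819 (plus strand), Zscan4f chr7:11397665-11397914 (plus), Zscan4b chr7:10905051-10905300 (minus), Usp17lc chr7:103416446-103416695 (plus), Clpp chr17:56990014-56990263 (plus) and Ostm1 chr10:42678666-42678915 (plus). Capitals mark matches, on either strand, to TAATCC (the core bound by OTX and OBOX type homeodomains), TATAAA (the TATA box), GGGCGG (the GC box) or CCAAT.
Zfp352: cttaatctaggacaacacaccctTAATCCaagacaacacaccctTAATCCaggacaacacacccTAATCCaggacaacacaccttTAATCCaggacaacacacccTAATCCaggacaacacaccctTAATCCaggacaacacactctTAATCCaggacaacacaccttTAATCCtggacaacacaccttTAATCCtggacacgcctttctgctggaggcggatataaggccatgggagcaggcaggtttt
Zscan4f: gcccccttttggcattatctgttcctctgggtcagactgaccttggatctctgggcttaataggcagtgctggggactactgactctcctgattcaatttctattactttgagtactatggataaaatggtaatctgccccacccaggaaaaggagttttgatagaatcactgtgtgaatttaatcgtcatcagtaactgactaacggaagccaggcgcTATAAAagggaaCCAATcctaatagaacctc
Zscan4b: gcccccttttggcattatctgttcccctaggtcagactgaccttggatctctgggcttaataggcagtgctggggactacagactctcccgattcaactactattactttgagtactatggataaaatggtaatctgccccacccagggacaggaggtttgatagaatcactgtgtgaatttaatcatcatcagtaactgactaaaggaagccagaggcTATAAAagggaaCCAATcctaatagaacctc
Usp17lc: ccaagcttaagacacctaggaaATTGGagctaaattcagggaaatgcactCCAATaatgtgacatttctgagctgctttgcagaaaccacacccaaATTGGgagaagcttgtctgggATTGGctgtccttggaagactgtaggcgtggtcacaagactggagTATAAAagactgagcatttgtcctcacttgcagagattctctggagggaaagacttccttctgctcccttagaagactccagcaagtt
Clpp: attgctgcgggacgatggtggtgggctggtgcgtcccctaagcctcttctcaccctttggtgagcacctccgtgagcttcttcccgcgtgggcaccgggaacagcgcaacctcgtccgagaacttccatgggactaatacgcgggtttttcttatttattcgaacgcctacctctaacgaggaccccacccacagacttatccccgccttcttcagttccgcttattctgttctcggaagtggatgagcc
Ostm1: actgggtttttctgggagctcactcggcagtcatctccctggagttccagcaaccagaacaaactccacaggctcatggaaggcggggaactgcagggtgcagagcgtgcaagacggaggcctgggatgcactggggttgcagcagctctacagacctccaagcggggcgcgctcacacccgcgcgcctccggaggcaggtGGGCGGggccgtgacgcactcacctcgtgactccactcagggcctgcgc
The Zfp352 window repeats TAATCC 9 times. Zscan4f and Zscan4b are alike at 237 of 250 bases (94.8%) and share a TATAAA followed by CCAAT near the start. The windows of Zfp352, Zscan4f, Zscan4b and Usp17lc hold 1 to 3 CpG dinucleotides, and those of Clpp and Ostm1 hold 18 and 16. These 6 windows were picked, so their CpG counts describe no wider set of genes. Among all 27025 promoters of this length, TAATCC was found in 6.38%, TATAAA in 12.97%, GGGCGG in 32.9% and CCAAT in 34.5%, with a median of 6 CpG. Over the 5839 of 7153 compared genes that had a promoter, these shares were 5.00, 6.23, 59.2 and 39.2%, with a median of 17 CpG. For the 467 of 579 genes at least 4-fold higher they were 8.78, 7.71, 55.9 and 47.8%, with a median of 14 CpG. A match is a description of letters and not evidence of a bound factor.

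Between the knockout oocyte and the knockout 2-cell stage, many transcripts moved in both directions. Pooling the counts of each group left 7153 genes with 10 CPM in the oocyte or the 2-cell pool, of which 1392 (19.5%) were higher by 2-fold at the 2-cell stage and 1163 (16.3%) were lower. At 4-fold the counts were 579 (8.09%) and 290 (4.05%). Libraries of both stages did not overlap for 783 higher genes (10.9%) and 887 lower ones (12.4%), counts that were 407 and 355 with all 19 knockout oocytes. The filter favours higher genes: 521 of the compared genes were under 5 CPM in the oocyte pool, so they could enter only by being at least 2-fold higher. Among genes at 10 CPM or more in the oocyte pool 9.49% were higher. In WT, 3573 of 8478 genes (42.1%) were higher and 1084 (12.8%) lower. At 4-fold these were 2275 (26.8%) and 331 (3.9%), and without overlap 2009 (23.7%) and 703 (8.29%). The filter favours higher genes in WT too, so the 9.49% is not a match for the 42.1%. By level in the WT oocyte pool, 25.5% of genes at 10 to 100 CPM were higher, 6.92% of those at 100 to 1000 CPM and 0.741% of those above. In knockout these shares were 11.7, 4.45 and 2.33%. The median log2 ratio of all compared genes, under the same filter, was 0.15 in knockout and 0.69 in WT. How the libraries are scaled sets the split: 54.5% of the called knockout genes were higher by library totals, 43.8% with TMM factors (which moved the median by -0.22) and 17.9% when counts were scaled to the spike-ins (which moved it by -0.85). Measured against the other 12 knockout oocytes the share was 64.0%. By level in the oocyte pool, 16.8% of genes at 10 to 100 CPM were at least 2-fold lower, 24.2% of those at 100 to 1000 CPM and 31.0% of those above. In WT these shares were 14.1, 27.6 and 45.9%. The oocyte level both sets these bins and divides the ratio, so the rise is partly built in. It is given as a description and was not tested.

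**Figure D1:**
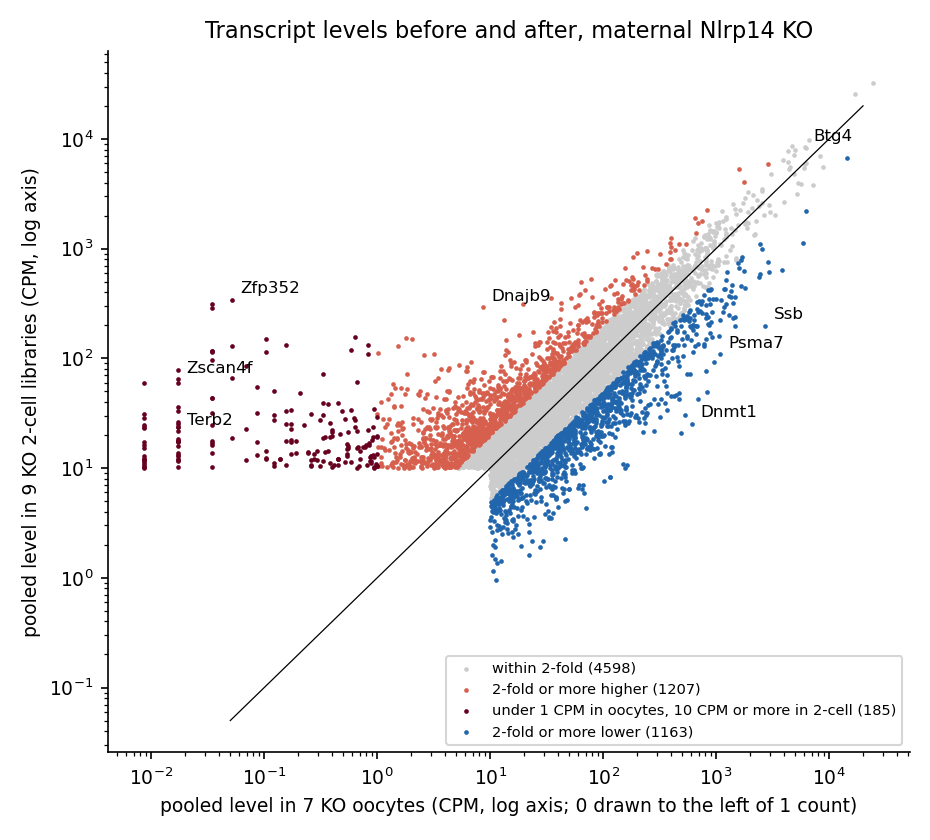
Each point is 1 of the 7153 compared genes, by its pooled level in 7 knockout oocytes (x axis, CPM, log axis, with 0 counts drawn to the left of 1 count) and in 9 knockout 2-cell libraries (y axis, CPM, log axis), and the line marks equal levels. The dark red points at the left are the 185 genes under 1 CPM in oocytes that reached 10 CPM or more, Zfp352 among them, and the blue points at the lower right are the 1163 lower genes, such as Dnmt1 and Ssb.

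Several genes of the 2-cell burst were seen in all 9 knockout 2-cell libraries. The genes named first are among the 15 highest ratios without overlap of the stages, so their lack of overlap is part of that choice. Zfp352, a zinc finger gene and a marker of the 2-cell stage, had 3 counts in the 7 oocytes together and 43.9, 451 and 814 CPM at the 2-cell stage (lowest, median and highest library). The log2 ratio of the pools was 12.69 (95% counting interval 11.14 to 14.97), with 10.03 in WT. Zscan4f, of the Zscan4 family known for telomere lengthening in embryonic stem cells, had 1 count in oocytes and 14.5, 46.6 and 427 CPM at the 2-cell stage, a ratio of 11.86 (9.38 to 17.16). Ubtfl1, a relative of the nucleolar factor Ubtf, also went from 1 count to 14.7, 70.6 and 349 CPM, at 12.13 (9.65 to 17.43), beside 12.24 in WT. Usp17lc, of a family of deubiquitinases, went from 1 count to 17.7, 64.5 and 136 CPM (11.75, 9.28 to 17.06). Even the lowest 2-cell library of these 4 genes was at 14.5 CPM or more. BB287469 and Usp17la had no count in the 7 oocytes. With that 0 set to 3 counts over the group, BB287469, at 18.5, 46.1 and 291 CPM, was at least 1152-fold higher and Usp17la, at 16.4, 26.3 and 88.8 CPM, at least 602-fold higher.

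The other genes with the highest ratios were of several kinds. Zscan4a reached 3.66, 59.4 and 790 CPM (11.46), Pramef25, a PRAME family member, 19.4, 165 and 373 CPM (11.28), and Trim43a, a tripartite motif gene, 0.20, 23.9 and 138 CPM (10.56). The list also held germ cell genes: Nxf2, an mRNA export receptor, at 11.3, 31.9 and 74.0 CPM (10.90), Terb2, a meiotic telomere protein, at 9.38, 19.9 and 114 CPM (10.30, and 4.47 against the other 12 oocytes), and D1Pas1, a testis DEAD-box helicase, at 12.2, 28.4 and 86.5 CPM (9.85). Olfr376, an olfactory receptor gene, was at 0.64, 38.0 and 128 CPM (11.03), Zscan4b at 9.66, 15.0 and 132 CPM (10.41) and Guca1a, a guanylate cyclase activator of photoreceptors, at 1.33, 18.6 and 160 CPM (9.48). These genes had 1 to 3 counts in the oocyte pool, so single libraries moved the ratios. Where the library left out held a gene's only oocyte counts, the pool was empty and 3 counts stood in. The ratio is then a lower bound and does not show a smaller rise. Without oocyte replicate 16 it was at least 10.32 for Ubtfl1, 9.22 for Olfr376, 8.61 for Zscan4b and 9.05 for D1Pas1. Without replicate 11 it was at least 8.75 for Trim43a and 8.49 for Terb2. Zscan4f was at least at 10.06 without replicate 12, Nxf2 at 9.09 without replicate 13 and Usp17lc at 9.90 without replicate 15. Genes that kept an oocyte count rose: Zscan4a was at 12.24 without replicate 16 or replicate 11, and Pramef25 at 12.57 without replicate 14. Guca1a was at 10.26 without replicate 13 and at 10.21 without replicate 15. Members of the Zscan4, Usp17l, Pramef, Trim43, Obox and Tdpoz families are near copies, so how reads were shared among them is uncertain.

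The genes that went from under 1 CPM in the oocyte pool to 10 CPM or more numbered 185 in knockout, of which 145 had no overlap of the stages, 40 overlapped and 14 reached 100 CPM. In WT there were 858. The 155 genes found in both were 83.8% of the knockout genes and 18.1% of the WT ones, and 703 met the rule in WT alone, at a median of 3.16 CPM in the knockout 2-cell pool and 18.6 CPM in the WT one. The 185 genes took 0.0041 to 0.01003% of counts in the oocytes and 0.216 to 2.71% in the 2-cell libraries. On the list of 2-cell zygotic transcripts, 31 of 37 members compared were higher and 2 lower, with a median ratio of 7.83, against 36 and 3 of 42 in WT with a median of 8.74. Of the 37 members compared, 29 were under 5 CPM in the oocyte pool and entered only by being high at the 2-cell stage. In WT these were 34 of 42. The counts and medians therefore describe such members and support nothing. In 25 of the 48 members in the table, compared or not, every 2-cell library lay above every oocyte. Over all compared genes that share was 10.9%, and over all genes in the table it was not computed. Tdpoz1 libraries overlapped the oocytes, at 0, 2.47 and 412 CPM with counts in 8 of 9 2-cell libraries. The highest member was Gm8300, a 2-cell gene model, which had 2 counts in oocytes and 61.1, 226 and 1950 CPM at the 2-cell stage (13.14, 13.85 without oocyte replicate 14 and 14.02 without replicate 17). The 2 lower members were Obox2 (-2.59), an oocyte homeobox gene, and Sp110 (-1.42). Knockout libraries differed widely among themselves. Zscan4 genes summed to 92.7 CPM in replicate 4 and 2704 CPM in replicate 3, with a median of 372, against 1.70 to 3.67 CPM in oocytes and 286 to 578 CPM in the 8 WT libraries.

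**Figure D2:**
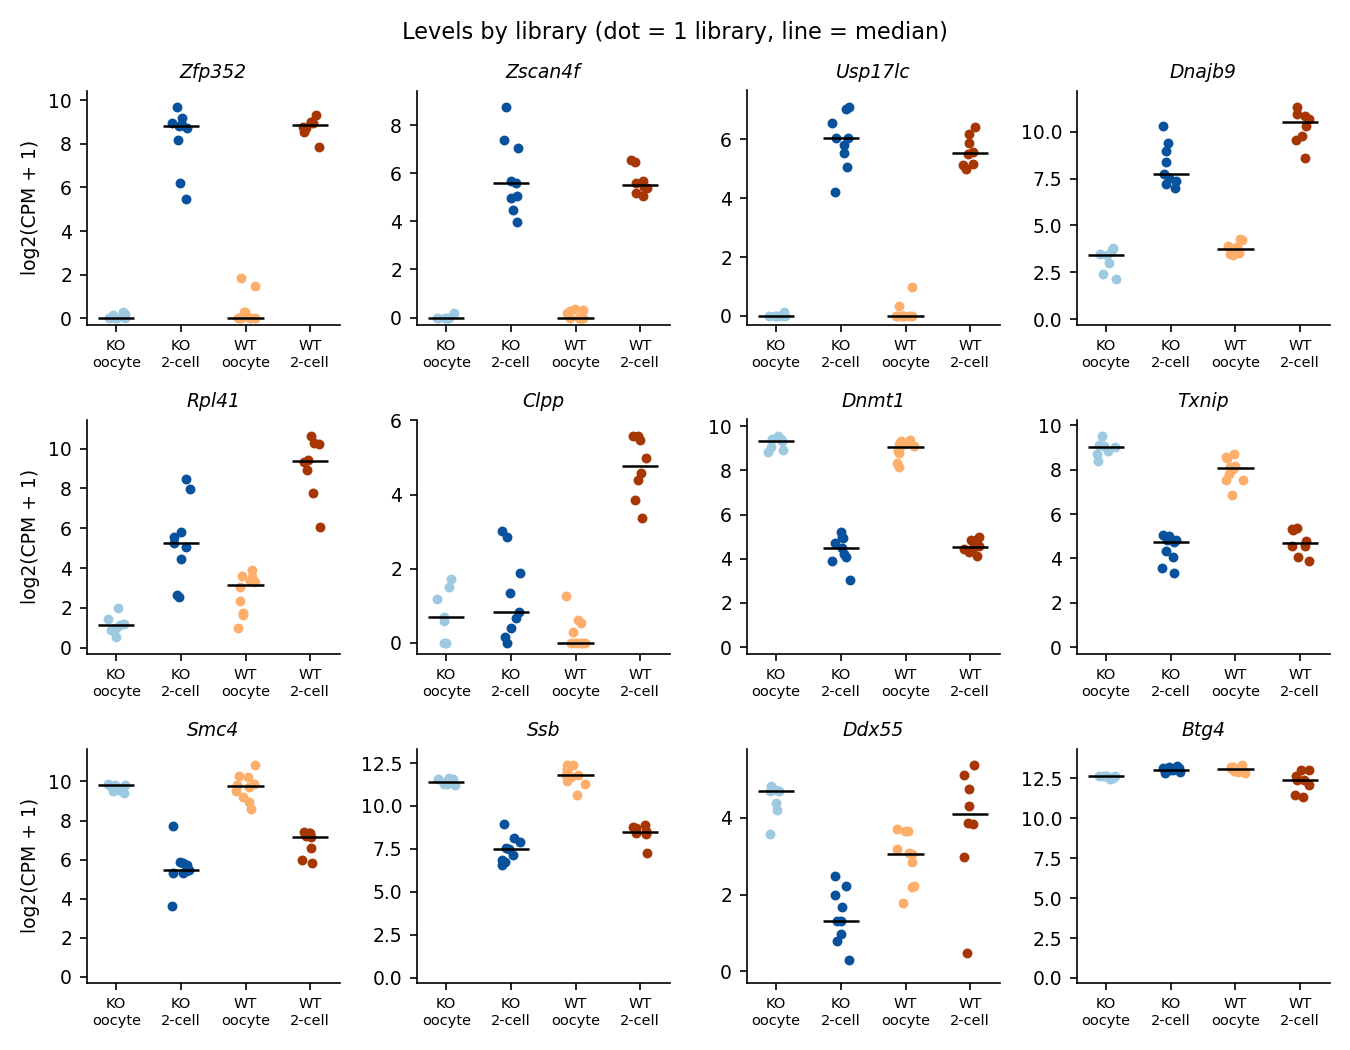
Each panel shows 1 gene and each dot 1 library (y axis, log2 of CPM + 1), in 7 knockout oocytes, 9 knockout 2-cell libraries, 10 WT oocytes and 8 WT 2-cell libraries, with a line at the median. Zfp352, Zscan4f and Usp17lc are near 0 in oocytes and present in all 2-cell libraries of both genotypes, while Clpp is high in the WT 2-cell libraries alone and Dnmt1 and Ssb are low in all 2-cell libraries.

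Paternal counts mark transcripts made after fertilisation or RNA brought in by the sperm, which were not told apart. Maternal counts hold inherited and new RNA together. The split needs sires of another strain than the mothers, which the labels do not state for each sample. No oocyte library has a paternal count above 0, and whether oocytes were split by allele is not stated. The error of the assignment was therefore not measured. Over the 2-cell libraries of both genotypes, 244199 gene values were not 0. In 1456 of them the maternal and paternal counts summed to more than the gene's own count. The reason for this was not tested, and the intervals of the paternal shares do not cover it. Of the counts assigned to an allele, 2.79% were paternal in the knockout 2-cell pool (1.21 to 8.68% by library) and 14.59% in the WT pool (4.00 to 24.69%). Among the 170 silent-to-on knockout genes with 50 or more assigned counts, the median paternal share was 40.3%, against 47.8% in 769 WT genes. Dnajb9, an ER co-chaperone, was 44.5% paternal (43.4 to 45.5) in knockout and 47.4% in WT. For Zfp352 the share was 42.1% (41.1 to 43.1), beside 39.7% in WT, and it ran from 33.3 to 100% over the 9 knockout libraries. Many other higher genes were nearly all maternal in the pool. Of 532 knockout genes at least 4-fold higher, 28.4% were under 5% paternal and the median was 25.4%, while of 2086 such WT genes 3.31% were under 5% and the median was 43.1%. Genes within 2-fold in knockout had a median of 1.51%.

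Among the 4-fold higher genes with the most allele counts, Cfl1, the actin-severing cofilin, went from 157, 190 and 220 CPM in oocytes to 513, 796 and 1222 CPM at the 2-cell stage. The stages did not overlap (ratio 2.22), and the paternal share was 2.94%, with 22.1% in WT. Actb, beta-actin, had medians of 67.0 and 387 CPM (2.605) with 2.46% paternal against 17.2%. Dad1, a subunit of the oligosaccharyltransferase, had medians of 18.3 and 268 CPM (4.03) with 2.22% against 15.8%, and Cdc42, a regulator of cell polarity, 112 and 489 CPM (2.04, overlapping) with 0.995% against 19.5%. In these 4 genes the maternal allele gave nearly all of the pooled knockout counts. Single libraries differed: the highest knockout library was 18.8% paternal for Cfl1, 11.6% for Actb, 17.1% for Dad1 and 35.6% for Cdc42. The knockout and WT library ranges overlapped for each, with the lowest WT libraries at 2.94, 3.27, 1.42 and 2.44%. Low paternal shares in both genotypes were found for Tram1 (0.637% against 2.18%), which helps proteins enter the ER, and Sec22a (0.302% against 0.281%). The X-linked G6pdx, of the pentose phosphate pathway, was also low in both (0.136% against 0.191%). The ratios of these genes were 2.76, 2.63 and 2.09. Copz1, a coatomer subunit whose stages overlapped (2.63), was 0.544% paternal in the pool, against 5.41% in WT. Its WT libraries had a median of 12.3%, from 0.334 to 21.2%, and its knockout libraries a median of 0.193% and a highest of 1.06%. For Plat, the tissue plasminogen activator (0.968% against 4.78%), and Tbc1d14 (0.129% against 0.680%), the ratios of 2.39 and 2.17 became -3.66 and -0.63 against the other 12 oocytes, where their medians were 3999 and 545 CPM.

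**Figure D3:**
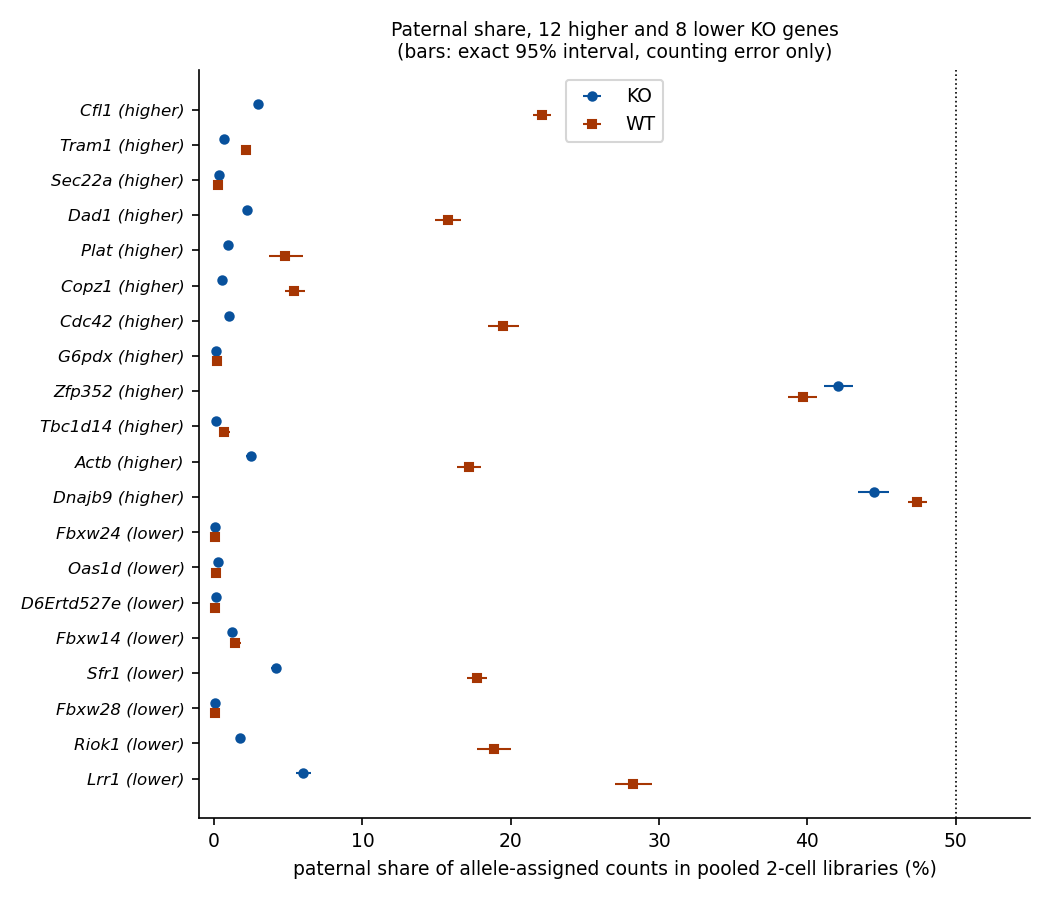
Paternal share of allele-assigned counts in the pooled 2-cell libraries (x axis, %) for the 12 higher and 8 lower knockout genes at 4-fold with the most allele counts, as blue circles for knockout and brown squares for WT, with exact 95% intervals and a dotted line at 50%. In knockout Zfp352 and Dnajb9 lie at 42.1 and 44.5% and the other 10 higher genes at 2.94% or less.

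Stored transcripts with the lowest ratios included Dnmt1, Txnip, Ssb, Smc4, Clk1 and Bbs4. The 15 lowest were chosen among genes whose stages did not overlap, so their separation is a description of that choice. Dnmt1, the maintenance DNA methyltransferase, was at 462, 637 and 746 CPM in the 7 oocytes and at 7.16, 21.3 and 36.5 CPM in the 9 2-cell libraries. The ratio was -4.61 (-4.68 to -4.53), beside -4.48 in WT. Txnip, which binds thioredoxin, went from 340, 515 and 724 CPM to 9.25, 25.8 and 31.8 CPM (-4.54, WT -3.42). Ssb, the La protein that binds the ends of RNA polymerase III transcripts, went from 2386, 2716 and 3201 CPM to 93.7, 179 and 502 CPM (-3.77, -3.80 to -3.75, WT -3.44). Smc4, a condensin subunit, went from 688, 895 and 938 CPM to 11.2, 43.7 and 210 CPM (-4.08, WT -2.99). Clk1, a kinase of splicing factors, went from 545, 690 and 879 CPM to 10.3, 36.0 and 135 CPM (-4.03, WT -1.96). Bbs4, of the ciliary BBSome, went from 377, 566 and 577 CPM to 13.9, 29.9 and 50.8 CPM (-4.13, WT -3.44).

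Others of the 15 lowest were Pop1, Ftsj3, Gnl2, Med20 and Ddx55. Pop1, a protein of RNase P, had medians of 69.4 CPM in oocytes and 4.36 CPM at the 2-cell stage (-4.06, WT -2.94), and Ftsj3, a ribosomal RNA methyltransferase, 119 and 8.32 CPM (-3.82, WT -2.77). For Gnl2, a nucleolar GTPase, they were 143 and 7.64 CPM (-3.79, WT -1.62), and for Med20, a Mediator subunit, 116 and 5.76 CPM (-3.80, WT -1.22). Ddx55, a helicase of ribosome assembly, was at 10.9, 25.0 and 27.5 CPM in oocytes and 0.23, 1.49 and 4.55 CPM at the 2-cell stage. Its ratio was -3.78 (-4.09 to -3.49), and in WT it was 1.12, higher at the 2-cell stage. The remaining transcripts among the 15 lowest were Tmem42 (-4.35, and -4.96 without 2-cell replicate 7), Nfrkb (-3.94), Ccdc174 (-3.93, and -4.55 without 2-cell replicate 4) and Cars (-3.83), a tRNA synthetase. Of the 262 genes at least 4-fold lower with 50 or more assigned counts, the median paternal share was 5.23%, above the 1.51% of genes within 2-fold, and 9.92% of them were at 25% or more. A fall in maternal counts alone raises a paternal share, so part of this gap is built in by the choice of falling genes. With 200 or more assigned counts the medians were 4.17 and 1.40%, and 3.83% of the lower genes were at 25% or more. The 8 lower genes with the most allele counts were 0.0312 to 5.99% paternal, from Fbxw24, of an oocyte F-box family, to Lrr1, the substrate-recognition part of a ubiquitin ligase. Lrr1 (medians of 1491 and 229 CPM, -2.13) was 28.3% paternal in WT, and Riok1, a kinase of ribosome assembly (1509 and 316 CPM, -2.02), was 1.73% paternal against 18.8% in WT.

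Counts of list members are read beside the 19.5% of all compared genes that were higher and the 16.3% that were lower, and beside their median of 0.15. WT counts are read beside the 42.1% of all compared WT genes that were higher, the 12.8% that were lower and their median of 0.69. Members under 5 CPM in the oocyte pool entered only by being higher. In WT these were 38 of 78 ribosomal protein genes, 14 of 54 of ribosome biogenesis, 9 of 26 of ER stress and 8 of 19 p53 targets. In knockout they were 24 of 67, 3 of 44, 2 of 20 and 2 of 13. Oocyte stored transcripts had 0 of 61 in WT and 1 of 63 in knockout. The 2 medians of a list thus cover different members, and their gap is partly set by the filter. Of 63 oocyte stored transcripts compared, 8 were higher, 19 lower and the others within 2-fold, with a median of -0.24, against 5 and 30 of 61 and a median of -0.99 in WT. The lower ones were led by Ccnb3, a meiotic cyclin, with medians of 108 and 14.1 CPM (-2.73), Oas1d, of the oligoadenylate synthetase family (2927, 3848 and 4100 CPM to 337, 584 and 1263 CPM, -2.57), and Fbxw16 (773 and 94.7 CPM, -2.52). Without 2-cell replicate 4 Fbxw16 was at -3.13. The Fbxw and Oas1 genes are near copies, with uncertain sharing of reads. Bmp15, a growth factor secreted by the oocyte, was at 1436, 1575 and 1764 CPM in oocytes and 1625, 5099 and 7314 CPM at the 2-cell stage (1.73, overlapping, WT 0.47). Mos, the kinase that holds the metaphase arrest, had a ratio of 3.02 that rested on 2-cell replicate 4: its libraries were at 1.85, 6.07 and 137 CPM, the ratio without replicate 4 was 0.87, and against the other 12 oocytes it was -3.74.

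The NLRP and subcortical maternal complex list, to which Nlrp14 belongs, had 1 higher member of 17, Ooep (1.70), 6 lower ones and a median of -0.07 (-0.57 in WT, and 0.13 in knockout against the other 12 oocytes). Padi6, a structural protein of the cytoplasmic lattices, went from 576, 671 and 1175 CPM to 47.2, 57.0 and 127 CPM, without overlap (-3.41, WT -2.53). Nlrp4b (-1.98, WT -3.66), Nlrp5 (-1.90, WT -2.53) and Nlrp2 (-1.81, WT -1.42), all inherited NLRP proteins, were also below every oocyte. Nlrp5 was at -2.65 without 2-cell replicate 4. Oocyte markers, which overlap this list, had 5 higher and 3 lower members of 12 and a median of 0.32, which was -0.47 by spike-in scaling and -0.48 against the other 12 oocytes.

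For the machinery that stores and destroys maternal RNA, 14 of 58 members were higher (24.1%, beside 19.5% of all genes), 9 were lower (15.5%, beside 16.3%) and the median was 0.26 (-0.63 by spike-in scaling), beside 0.54 in WT. Btg4, the adaptor that brings the deadenylase to maternal RNA, was at 5580, 6353 and 6421 CPM in oocytes and 7368, 8388 and 9867 CPM at the 2-cell stage. The stages did not overlap, although the ratio of 0.45 is under 2-fold, and WT was at -0.56. Other transcripts of the deadenylase and decapping enzymes were close to 2-fold or within it: Cnot7 0.44, Cnot6l 0.67, Cnot1 1.05, Pan2 0.08, Pan3 1.03, Dcp2 0.61 (WT -0.62) and Xrn1 -0.52. Pan3 was at -0.17 against the other 12 oocytes. Lower were Zcchc6, a terminal uridylyltransferase (-2.55), Mettl14, of the m6A writer (-2.07), Pabpn1l (-2.004), a poly(A) binding partner of Btg4, Edc4 (-1.75) and Dcp1a (-1.68), both of decapping, and Dicer1 (-1.12). Cnot4 was at -1.10 and Patl2 at -1.34 (-2.06 without 2-cell replicate 4, 0.15 against the other 12 oocytes). Higher were Pabpc1l, a poly(A) binding protein of eggs (medians of 3.20 and 37.1 CPM, 4.24), Khsrp, which binds AU-rich elements (3.07, but -0.68 against the other 12 oocytes), Ybx2, an RNA-binding protein of germ cells (2.91), Pabpn1 (2.26), Parn (1.62), Cnot11 (1.39, but -0.33 against the other 12 oocytes) and Marf1 (1.22). The RNA-storage proteins Zar1 (-0.29), Dazl (-0.52), Cpeb1 (-0.09) and Lsm14a (-0.13) were within 2-fold in the pools, where Dazl was at -1.90 in WT. Zar1 libraries went from 282, 339 and 755 CPM in oocytes to 52.1, 113 and 881 CPM at the 2-cell stage. The highest was replicate 4, and 7 of 9 2-cell libraries lay below every oocyte, so its pooled ratio does not describe most libraries.

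Of 19 genes of DNA methylation and demethylation, 2 were higher and 3 (15.8%) lower, the latter near the 16.3% of all genes, with a median of -0.12 (0.24 in WT). Beside Dnmt1, the lower ones were Dnmt3a, a de novo methyltransferase (medians of 185 and 61.2 CPM, -1.37), and the glycosylase Mbd4 (-1.08, overlapping). The higher ones were Dnmt3l, the cofactor of Dnmt3a, at 11.7, 20.4 and 30.6 CPM and then 42.5, 65.7 and 92.0 CPM (1.62, without overlap), and the dioxygenase Tet1 (1.12, overlapping). Factors that protect methylation were within 2-fold: Dppa3 at -0.04 (WT -1.25), Uhrf1 at 0.01, Zfp57 at -0.44 (WT -1.12), Trim28 at -0.19 and Setdb1 at -0.75. Tet3, the dioxygenase of the zygote, was at 0.21.

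Of 25 regulators of zygotic genome activation 3 were higher and 5 lower in knockout, with a median of -0.09. In WT 14 of 27 were higher (51.9%, beside 42.1% of all WT genes) and 4 lower (14.8%, beside 12.8%), with a median of 1.04. The higher ones were Dppa4 (5.34), Sp1 (2.15), both overlapping, and Lmna (1.35), and the lower ones Chaf1a (-1.75), a histone chaperone subunit, Rnf114 (-1.69), Smarca4, the remodelling ATPase (medians of 33.4 and 12.2 CPM, -1.34, WT 0.47), Brd3 (-1.19) and Klf17 (-1.09, but 0.51 against the other 12 oocytes). Kdm5b, a demethylase of histone H3 lysine 4, was at 0.87 with WT at 3.40, and Dppa2 at 0.20 with WT at 1.41. RNA polymerase II and its general factors had 3 higher (Gtf2h4 1.67, Tbp 1.49 and Gtf2a1 1.06) and 10 lower members of 43. Their median of 0.05 was -0.15 with TMM factors, -0.12 with DESeq2 size factors and -0.87 by spike-in scaling. Lower ones included Mnat1, of the kinase module of TFIIH (medians of 48.9 and 6.997 CPM, -2.95), Taf3 (872 and 215 CPM, -2.10), and the TFIIH subunits Gtf2h2 (-1.94, and -2.66 without 2-cell replicate 4) and Gtf2h1 (-1.85, WT -0.38).

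Among ribosomal protein genes more were higher than lower, and among ribosome assembly factors more were lower than higher. Of the ribosomal protein genes compared, 24 were under 5 CPM in the oocyte pool and entered only by being higher. Of 67 cytosolic ribosomal proteins 38 were higher and 3 lower (Rpl4 at -1.58 and Rpl31 at -1.34 among them), with a median of 1.33. In WT 71 of 78 were higher and none lower, with a median of 3.96. Rpl41 was at 0.48, 1.22 and 3.00 CPM in oocytes and 4.91, 36.7 and 352 CPM at the 2-cell stage, without overlap (5.41, WT 6.61), and Rps27a (4.04, WT 7.13) and Rpl7a (4.01, WT 5.53) did not overlap either. Ribosomal protein genes have many processed copies, so the sharing of reads is uncertain. Their summed level was 2107 to 2591 CPM in oocytes, 2642 to 5907 CPM in knockout 2-cell libraries and 4478 to 18715 CPM in WT ones, so the knockout and WT ranges at the 2-cell stage overlapped. For ribosome biogenesis 6 of 44 members were higher and 18 lower, with a median of -0.78. In WT 28 of 54 were higher (51.9%, beside 42.1% of all WT genes) and 3 lower, with a median of 1.18. Nop56, a core protein of box C/D particles, went from 278, 410 and 472 CPM to 7.46, 33.6 and 187 CPM, without overlap (-3.15, WT -0.97). Wdr12, of the PeBoW complex, had medians of 17.95 and 1.52 CPM (-3.44, and -4.08 without 2-cell replicate 8), with 1.71 in WT. Rrp1b was at -3.43 and Rbm28 at -3.19 (WT -0.14).

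Other housekeeping lists had medians below that of all genes. Of 33 proteasome genes 5 were higher and 11 lower, with a median of -0.61 (0.77 in WT). Psma7, a core subunit, went from 750, 1048 and 1254 CPM to 17.6, 47.9 and 276 CPM, without overlap (-3.31, WT -4.23, and -4.25 without 2-cell replicate 4). Psma5, another core subunit, was at 4.06, but at -0.47 against the other 12 oocytes, and the other higher members were Psme3 (2.31), Psmc2 (2.07), Psmb2 (1.84) and Psmb7 (1.84). In the spliceosome list 12 of 52 were higher and 17 lower (median -0.28, WT 0.80), from Snrpc (5.09) and Sf3b5 (3.77, -0.66 against the other 12 oocytes) to Snrnp70, of the U1 particle (-2.93, and -3.52 without 2-cell replicate 4), and Snw1 (-3.20). Oxidative phosphorylation genes depended on the oocytes used: 9 of 50 were higher and 18 lower with a median of -0.29, but against the other 12 oocytes 23 of 45 were higher and 2 lower with a median of 1.02. Atp5g1, of the ATP synthase ring, was at 4.77 and Cox7b at 2.64, while Ndufa10 was at -2.47 and Uqcrc2 at -2.37. DNA replication genes had 2 higher (Gins2 1.4995 and Gins4 1.05, both overlapping) and 15 lower members of 39 and a median of -0.72 (0.04 in WT). Lig1, the replicative ligase, had medians of 45.7 and 5.62 CPM (-2.89), Rpa1 159 and 33.6 CPM (-1.96) and Orc1 79.0 and 21.1 CPM (-1.86, overlapping). Rfc3, of the clamp loader, was at -2.31, but at 0.02 against the other 12 oocytes.

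Stress, cell cycle and signalling genes had members on both sides. In the integrated and ER stress response list 9 of 20 were higher and 2 lower (Atf6 -1.81 and Dnajc3 -1.60), with a median of 0.89 (2.55 in WT). Dnajb9 was at 3.42, 9.63 and 12.98 CPM in oocytes and 127, 214 and 1284 CPM at the 2-cell stage, without overlap (5.08, WT 6.55). Pdia4, a disulfide isomerase of the ER (3.13), Ddit3, the factor CHOP (2.23), and Eif2ak3, the kinase PERK (1.90, overlapping), were also higher. Among 19 heat shock genes 3 were higher and 3 lower, with a median of -0.39. Hsp90aa1 went from 1176, 1417 and 1733 CPM to 145, 247 and 311 CPM (-2.63), and all knockout 2-cell libraries lay below all WT ones. Hsph1 was at -2.27 and Hspa12a at -1.18, with Hspa2 at 3.52, Hspa13 at 1.13 and Hspa8 at 1.81, which was at -0.00074 against the other 12 oocytes. Of 42 genes of meiosis and mitosis control 8 were higher (19.05%, beside 19.5% of all genes) and 5 lower (11.9%, beside 16.3%), with 6 under 5 CPM in the oocyte pool (median 0.22, and -0.56 by spike-in scaling): Cdk1, the mitotic kinase, had medians of 1.10 and 55.1 CPM (5.23), Cdc25c 0.43 and 30.9 CPM (5.22, and 6.17 without oocyte replicate 11), and Aurkb was at 4.07, overlapping. The other lower members were Cdc25a (-2.47), Bub1b (-1.87), Cdc20 (-1.43) and Incenp (-1.35).

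Calcium handling genes had 8 higher and 5 lower members of 24, with a median of 0.57 (-0.22 by spike-in scaling). Calm2, a calmodulin gene, had medians of 34.5 and 354 CPM (3.36) and Tmbim6 of 42.8 and 244 CPM (2.93), while Atp2b1, a calcium pump of the plasma membrane, had 214 and 24.7 CPM (-3.00) and Itpr2, a calcium release channel, 292 and 37.8 CPM (-2.74). The other lower members were Camk2g (-2.04), Letm1 (-1.98) and Micu2 (-1.005). Among 13 p53 targets and apoptosis genes 5 were higher and none lower (median 0.27, -0.52 by spike-in scaling, 2.73 in WT): Ei24 (2.53), Plk2 (2.50), Cdkn1a (2.44), Mcl1 (1.88) and Btg2 (1.25). Of 11 imprinted genes Impact was higher (2.25, overlapping) and Commd1 lower (-1.09), with a median of 0.22 (-0.60 by spike-in scaling). Among 6 lineage genes of later stages Dppa5a (1.14, but -0.38 against the other 12 oocytes) and Fgfr2 (1.06) were higher and Gata3 (-1.27) lower (median 0.57, -0.23 by spike-in scaling). Only 4 replication-dependent histones were compared, and Hist1h2ba, the oocyte and testis form, was at -1.42, but at 2.85 against the other 12 oocytes.

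**Figure D4:**
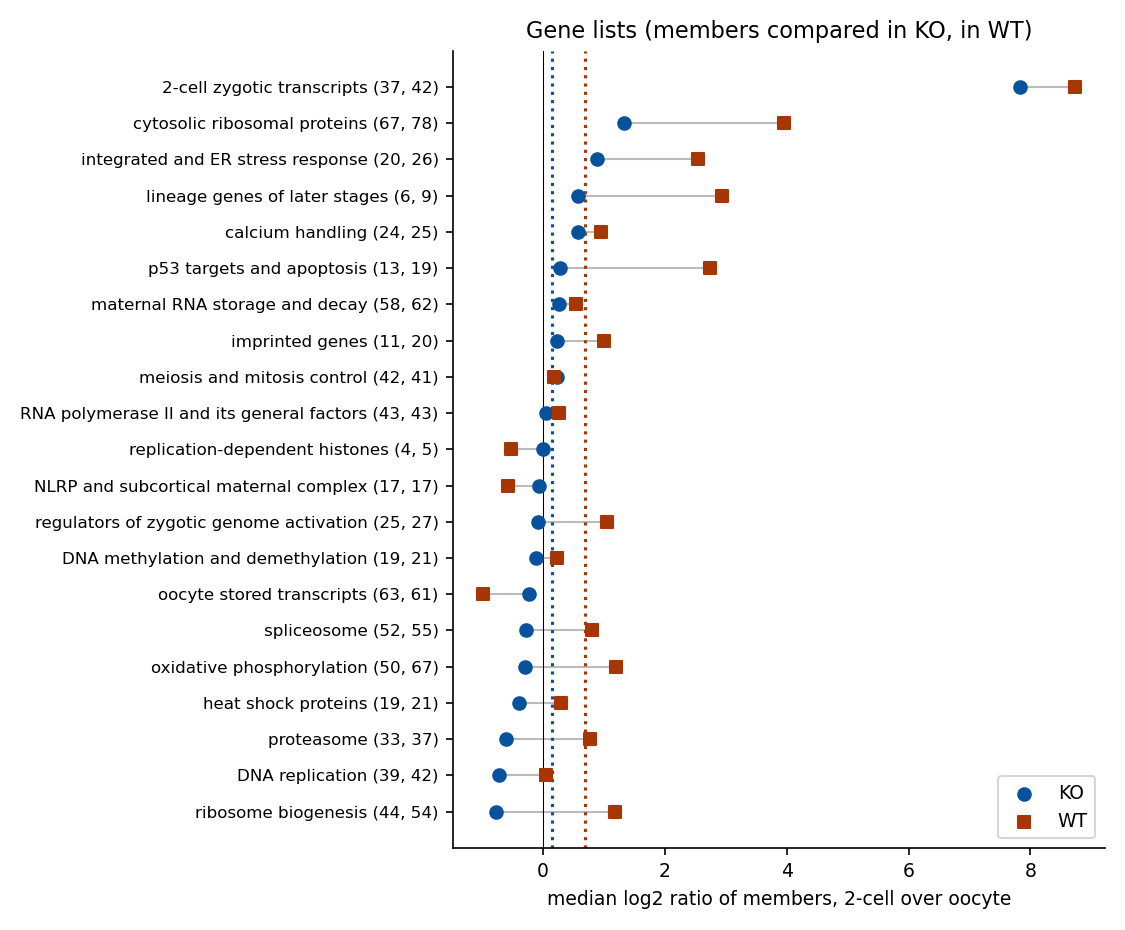
Median log2 ratio of the 2-cell over the oocyte pool (x axis) for the members of each gene list, as blue circles for knockout and brown squares for WT, with dotted lines at the medians of all compared genes (0.15 and 0.69) and the numbers of members compared in parentheses. The 2-cell zygotic list lies highest in both genotypes, and ribosome biogenesis, DNA replication and the proteasome are lowest in knockout.

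To see how much of the WT programme took place, genes were classed by odd-numbered WT libraries alone and then read in knockout and in the held-out even-numbered WT libraries. Of 2389 genes switched on at least 4-fold in the odd-numbered libraries, 1158 (48.5%) were at least 4-fold higher in knockout and 2145 (89.8%) in held-out WT, with median ratios of 1.91 and 4.00. Of these genes 146 stayed under 1 CPM in the knockout 2-cell pool and 2 in held-out WT. They took 1.54 to 1.83% of counts in knockout oocytes, 3.11 to 11.8% in knockout 2-cell libraries (median 4.88%) and 6.01 to 22.1% in held-out WT, so the genotypes overlapped through knockout replicates 3 and 8 and WT replicate 8. Without WT replicate 8 the held-out share of genes was 94.9%. Cleared genes were read the same way: of genes at least 4-fold lower in the odd-numbered libraries, 129 (29.1%) were so in knockout and 233 (52.6%) in held-out WT (72.7% without WT replicate 8), with medians of -1.37 and -2.06. These transcripts took 16.6 to 19.8% of counts in knockout oocytes and 3.69 to 12.2% in knockout 2-cell libraries, against 2.30 to 6.79% in held-out WT. Over the 6878 genes compared in both genotypes the stage ratios had a Pearson r of 0.846, across genes, which are not independent. Of genes 2-fold higher in either, 1120 were higher in both, 84.0% of the knockout genes and 51.9% of the WT genes. For lower genes the 648 shared ones were 58.5% and 62.0%. None was higher in knockout and lower in WT by 2-fold, and 52 were lower in knockout and higher in WT.

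**Figure D5:**
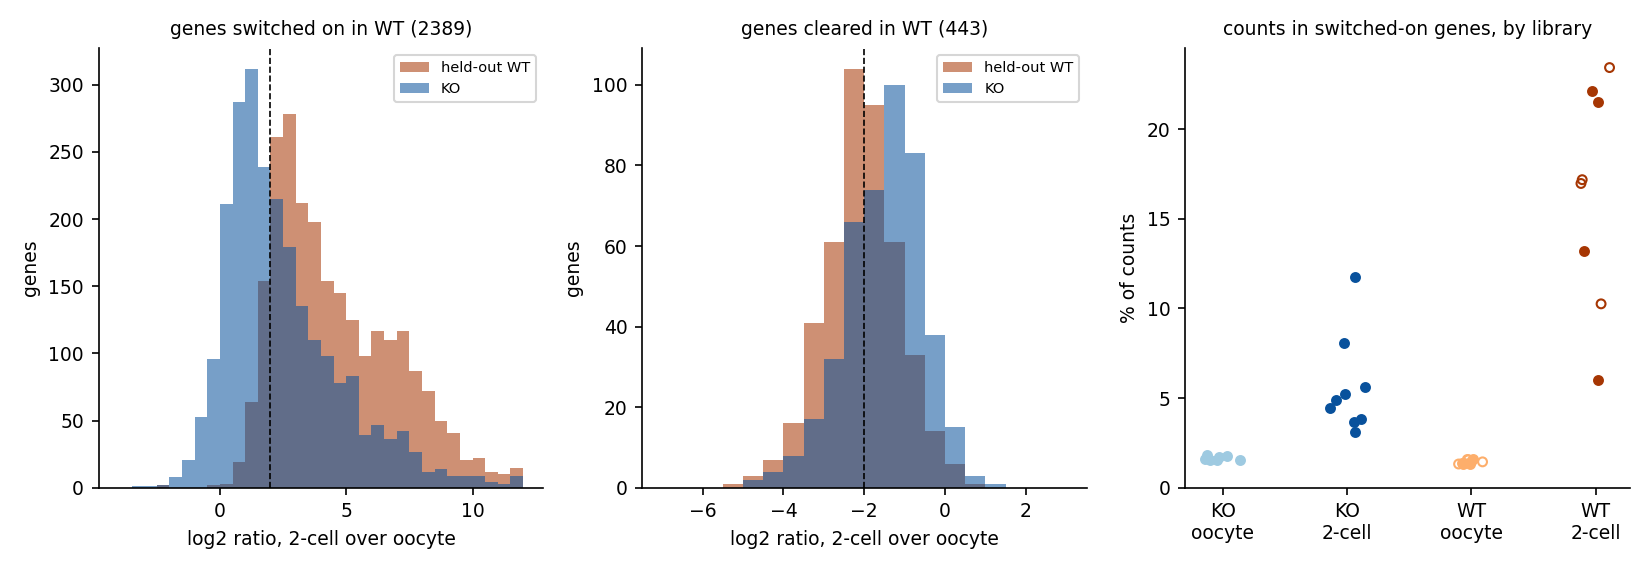
Left and middle: number of genes (y axis) by log2 ratio of the 2-cell over the oocyte pool (x axis) in knockout (blue) and held-out WT (brown) for the 2389 genes switched on and those cleared in odd-numbered WT libraries, with a dashed line at 4-fold and values past the ends drawn in the end bins. Right: percent of a library's counts in the switched-on genes (y axis), 1 dot per library, where open circles are the WT libraries that chose the genes and knockout 2-cell libraries lie between 3.11 and 11.8%.

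Some genes came on less than in WT or not at all. Over 8416 genes with 10 CPM in the knockout or the WT 2-cell pool, all knockout 2-cell libraries lay below all WT ones for 115 genes (1.37%) and above for 28 (0.333%). These counts use the contrast that chose the genes named next, which are given as a description. Smad7, an inhibitor of TGF-beta signalling, was at 0, 1.01 and 5.18 CPM in knockout 2-cell libraries, overlapping the oocytes at 0 to 1.68 CPM, and at 5.82, 61.0 and 98.7 CPM in WT. The stage ratios were 1.33 in knockout (2.37 without oocyte replicate 11) and 8.92 in WT. Clpp, the mitochondrial protease, was at 0, 0.60 and 2.28 CPM in oocytes and 0, 0.79 and 7.05 CPM at the 2-cell stage, overlapping, and at 9.32, 26.8 and 46.9 CPM in WT 2-cell libraries (0.89 against 6.32). Ostm1, a subunit of a lysosomal chloride transporter, was at 0.12, 5.98 and 7.09 CPM and then 0, 3.41 and 10.4 CPM (-0.06), where WT was at 4.92. Cited1, a transcriptional coactivator, was at 3.44 (6.03 without oocyte replicate 12) against 10.03, Itpripl1 at 3.11 (2.27 without 2-cell replicate 4) against 9.55, and Trap1a at 3.91 (5.57 without oocyte replicate 15) against 9.51. Prdx4, an ER peroxiredoxin, did not overlap between stages, at 0 to 2.16 CPM and then 4.06, 15.2 and 24.0 CPM, and its ratio of 5.15 (9.17 without oocyte replicate 11) was set beside 9.88 in WT. Ppp2cb, a catalytic subunit of PP2A, was at 4.57 (5.93 without oocyte replicate 16), and in WT, with no count in oocytes, at least 709-fold higher at the 2-cell stage. Igf2bp1, an mRNA-binding protein, was at 1.77 (4.37 without oocyte replicate 14) against 6.66. Renbp was at 3.70 against 8.19 in WT (5.79 without oocyte replicate 11 and 2.50 without 2-cell replicate 8).

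Other transcripts had a higher stage ratio in knockout than in WT, by the same choice of genes. Nlrp14 was 1 of these 10 (0.45 against -0.59). Sdha, of mitochondrial complex II, went from 215, 283 and 314 CPM to 60.1, 94.7 and 188 CPM in knockout (-1.32) and was at 6.07, 22.0 and 50.8 CPM in WT 2-cell libraries (-2.54). Elmod2 went from 156, 279 and 359 CPM to 492, 643 and 875 CPM, without overlap, and its ratio was 1.29 in knockout and -0.28 in WT. Ube2d1, a ubiquitin-conjugating enzyme, overlapped between stages, with medians of 26.3 and 39.2 CPM (0.65), and was at -1.78 in WT. Srsf3, a splicing factor (-0.10 against -1.57), Armc10 (-0.14 against -1.49), Nr2c1, a nuclear receptor (-0.35 against -1.27), and Slc35f6 (0.05 against -1.03) were within 2-fold in knockout and at least 2-fold lower in WT. Echdc3 was at -0.62 against -1.93 and Tsnax, the partner of translin, at 0.81 against -0.45. The difference in stage ratio ranged over the other 9 genes from 0.92 for Nr2c1 to 2.43 for Ube2d1.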

How the data were processed

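RNA libraries of MII oocytes and 2-cell samples were read from 1 deposited table of whole-number counts per gene symbol, and allele counts from the 2 deposited maternal and paternal tables. Per the submitters' processing notes the tools were Trim Galore 0.6.6, cutadapt 1.15, STAR 2.6.0a, HTSeq 0.10.0, featureCounts 2.0.1 and SAMtools 0.1.18 with build mm9, and Bismark 0.23.0 and MethylDackel 0.5.0, with no role or order given. How alleles were split is not given in the sources used here. Of 24542 rows, 92 ERCC rows were left out of totals and comparisons, and 24450 genes stayed. The 155 DNA libraries of the series were not used here.

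Samples were grouped by their labels and, within oocytes, by the spike-in share. No molecular identifiers are reported. No library was a copy of another (chi-square per gene of at least 14.2 for every pair within a group). Counts were summed per group (a pool) and divided by the summed totals. A gene with 10 CPM in the oocyte or 2-cell pool got a log2 ratio of its CPM in the pools, a 95% interval from the exact conditional Poisson (binomial) distribution, and a call at 2-fold. Where a pool had no count, 3 counts over the group stood in as the floor. Paternal shares carry exact Clopper-Pearson intervals and needed 50 assigned counts. The procedure was tested on simulated data. Scaling by total counts was compared with TMM (edgeR 4.0.16), DESeq2 1.42.0 size factors and spike-in counts, along with other filters, folds, pooling, oocyte sets and left-out libraries. Python 3.11.15, numpy 2.4.6, pandas 2.3.3, scipy 1.17.1, matplotlib 3.10.9 and R 4.3.3 were used.

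The members and the gene lists were chosen with earlier results of these data known. Named first was Nlrp14, then the 15 highest and 15 lowest ratios without overlap of the stages, at 20 CPM or more in the higher pool and seen in 50% or more of that stage's libraries. Next came the 10 genes on each side whose stage ratio differed most from WT with no overlap of the 2-cell libraries, up to 4 members of each list, members of the methylation, regulator and RNA decay lists, and the 12 higher and 8 lower genes with the most allele counts. Predicted models were passed over unless a list held them. Where a count of list members was 5 or fewer, members outside this rule were named after their values were seen. Some members of the ribosomal protein list are not reported here by name. Promoters were matched by symbol to a RefSeq table of build GRCm38.p6, not the build of the files. Fewer than 80% of the silent-to-on genes (142 of 185) and of the 4-fold lower genes (230 of 290) had a promoter, so no motif share is given for them.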

Additional observations from a re-analysis of the deposited data

Results flagged for a closer look

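In 110 groups of 7 knockout oocytes or 9 knockout 2-cell libraries, over the genes with the highest and lowest ratios, those most unlike WT and the library sums, 20 held a library whose distance from its neighbour exceeded Dixon's 95% critical value for the group's range (0.568 for 7 and 0.493 for 9). Chance gives about 1 in 20 groups, but that rate does not apply to genes chosen for having almost no oocyte counts, where a lone read gives the largest value the measure can take, as in 9 of the 20. No excess is read from the number. Genes were checked on log2 of CPM + 1.

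Among 2-cell libraries it was replicate 3 in every case. Its Zscan4 sum was 2704 CPM, with the others at 92.7 to 1147 CPM. Smad7 was at 5.18 CPM there and at 0 to 1.33 CPM in the others, and Trap1a at 0 CPM, with the others at 2.36 to 7.78 CPM. Replicate 3 also had the smallest total, 2704050 counts, and the lowest gene counts per spike-in count, 1044. The part of these values in the result was not tested.

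Among oocytes, several of the genes with the highest ratios were at 0 in all libraries but 1, where 1 or 2 reads were counted. These were Ubtfl1 (0.122 CPM), Olfr376 (0.122 CPM), Zscan4b (0.122 CPM) and D1Pas1 (0.243 CPM) in replicate 16, Trim43a (0.120 CPM) and Terb2 (0.120 CPM) in replicate 11, Zscan4f (0.126 CPM) in replicate 12, Nxf2 (0.122 CPM) in replicate 13 and Usp17lc (0.100 CPM) in replicate 15. Cited1 was at 0.758 CPM in replicate 12 and at most 0.100 CPM in the others, and Igf2bp1 at 3.07 CPM in replicate 14 and at most 0.486 CPM in the others. Prdx4 (2.16 CPM, others up to 0.214) and Renbp (0.481 CPM, others up to 0.122) stood apart in replicate 11. Low libraries were replicate 16 for Ostm1 (0.122 CPM, others 3.35 to 7.09), replicate 11 for Nfrkb (120.02 CPM, others 152 to 169), replicate 14 for Elmod2 (155.7 CPM, others 272 to 359) and replicate 17 for Echdc3 (56.2 CPM, others 87.8 to 118).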

How the results depend on the processing

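No paired analysis was possible because replicate numbers in the labels only name libraries and no test was run between groups. The counts of 1392 higher and 1163 lower knockout genes became 648 and 2966 by spike-in scaling, 7896 and 2647 without a filter, 4017 higher at 1 CPM, 456 and 692 at 50 CPM, and 579 and 290 at 4-fold. Against the other 12 knockout oocytes 2423 were higher. Leaving out 1 library gave 1324 to 1463 higher and 1123 to 1205 lower. No oocyte holds 0.1% spike-in counts, so that limit gave no value. Of genes switched on in WT, 56.5% were on in knockout at 2-fold and 53.5% with TMM, and 87.6% were on in held-out WT with even-numbered classes, 96.1% by spike-in scaling and 84.6% with all oocytes. Of cleared genes 44.9% were lower in knockout with even-numbered classes, 50.6% at 2-fold, 38.8% with all oocytes and 26.4 to 33.6% leaving out 1 library, and in held-out WT 71.3, 66.9, 62.3 (TMM) and 42.4% (spike-ins). Reversals were checked in a part of the genes. With all 19 knockout oocytes they were Mos (-3.02) and Khsrp (-0.0279), and against the other 12 Klf17 (0.51), Mos (-3.74), Khsrp (-0.68), Cnot11 (-0.33), Pan3 (-0.17), Patl2 (0.15), Psma5 (-0.47), Sf3b5 (-0.66), Rfc3 (0.0217), Hspa8 (-0.00074), Dppa5a (-0.38) and Hist1h2ba (2.85). Outside that check, Plat (from 2.39 to -3.66), Tbc1d14 (from 2.17 to -0.63) and the oocyte marker Zp3 (from 1.31 to -1.28) also changed sign against the other 12. Causes were not tested. Added after seeing the data: without WT 2-cell replicate 8 the held-out shares were 94.9 and 72.7%, with all knockout oocytes 407 and 355 genes had no overlap, and the silent-to-on count of 185 was 139 (spike-ins) to 235 (mean of CPM) and 159 to 210 leaving out 1 library. Where a gene has 1 to 3 counts in the oocyte pool, its ratio rests on those counts.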
